A study of Mus musculus with 6 samples.

Results

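The IL-1 family genes described here are 10 genes of the interleukin-1 system, namely the ligands Il1a, Il1b, Il18 and Il33, the receptor antagonist Il1rn, the receptors Il1r1, Il18r1 and Il1rl1, the shared coreceptor Il1rap and the decoy receptor Il1r2. They were chosen by name from the 52636 gene rows of the count table, with their values in the comparison of tuft-like and non-tuft-like medullary thymic epithelial cells (mTEC) already known. All 10 were found and all 10 were among the 32496 genes that passed the filter on low counts. Their values in this comparison are therefore given as a description.

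IL-1α and IL-1β bind the receptor encoded by Il1r1, which then recruits the coreceptor encoded by Il1rap and signals through MyD88 and IRAK kinases to NF-κB. The antagonist encoded by Il1rn occupies the same receptor without recruiting the coreceptor, while the decoy encoded by Il1r2 binds ligand but lacks the intracellular signalling domain. IL-18 and IL-33 act in the same manner through receptors of their own, and IL-33 also uses the coreceptor Il1rap. In skin, keratinocytes are an established source of IL-1α, of the antagonist and of the related IL-36 cytokines. Tuft cells are chemosensory epithelial cells, known in the gut for the release of IL-25, and similar cells occur in the thymic medulla.

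The study compared 3 libraries of tuft-like mTEC with 3 libraries of non-tuft-like mTEC from the thymus of C57BL/6 mice at 6 weeks of age. Both populations bound the lectin UEA, were low for MHCII and lacked CD80, Sca1 and CD63 on the surface, and the labels name no genetic change or treatment for either. The tuft-like cells carried CD117 and CD66a, and the non-tuft-like cells carried neither. The labels do not state that the replicates came from separate animals, so p-values measure only the spread between these libraries, which may be technical.

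The libraries held from 20097617 to 48369825 reads on genes. Levels are given as TMM-normalised CPM, counts scaled to a common total and corrected for library composition, and a log2 fold change is the tuft-like over the non-tuft-like level. Genes were called at a false discovery rate (FDR, the adjusted p of edgeR's quasi-likelihood test) under 0.05, and an exact permutation test of 3 libraries against 3 cannot give a p below 0.10. The labels were in accord with the sort genes in direction, with Ceacam1 (CD66a) rising from a mean of 12.0 to 208.1 CPM (edgeR FDR 0.000886) and Kit (CD117) with means of 167.0 and 393.9 CPM (edgeR FDR 0.0678). All 10 tuft markers listed were higher in tuft-like mTEC, with summed levels of 10413 to 17490 CPM against 631 to 800 CPM. Reads outside annotated genes and reads on the olfactory receptor genes, which serve as a measure of background, differed between libraries. Tuft-like library 3 stood apart, with 2.54 counts per exon kilobase on olfactory receptor genes against 5.70 to 15.2 in the other 5 libraries.

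Of the 10 genes, Il1r2, Il1rn and Il1rap were called lower in tuft-like mTEC and none was called higher. Among all genes tested, 2.11% were called in either direction, 1.16% as higher and 0.951% as lower. In 5 of the 10 genes (the same 3 with Il1b and Il18) every tuft-like library lay below every non-tuft-like library, which was the case for 8.87% of all genes tested, while 16.0% showed no overlap in either direction. The log2 fold change was negative for 9 of the 10 genes, with a median of -1.16 against 0.02 over all genes. In bulk samples such as these, fewer cells of a type and less RNA per cell cannot be told apart.

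**Figure D1:**
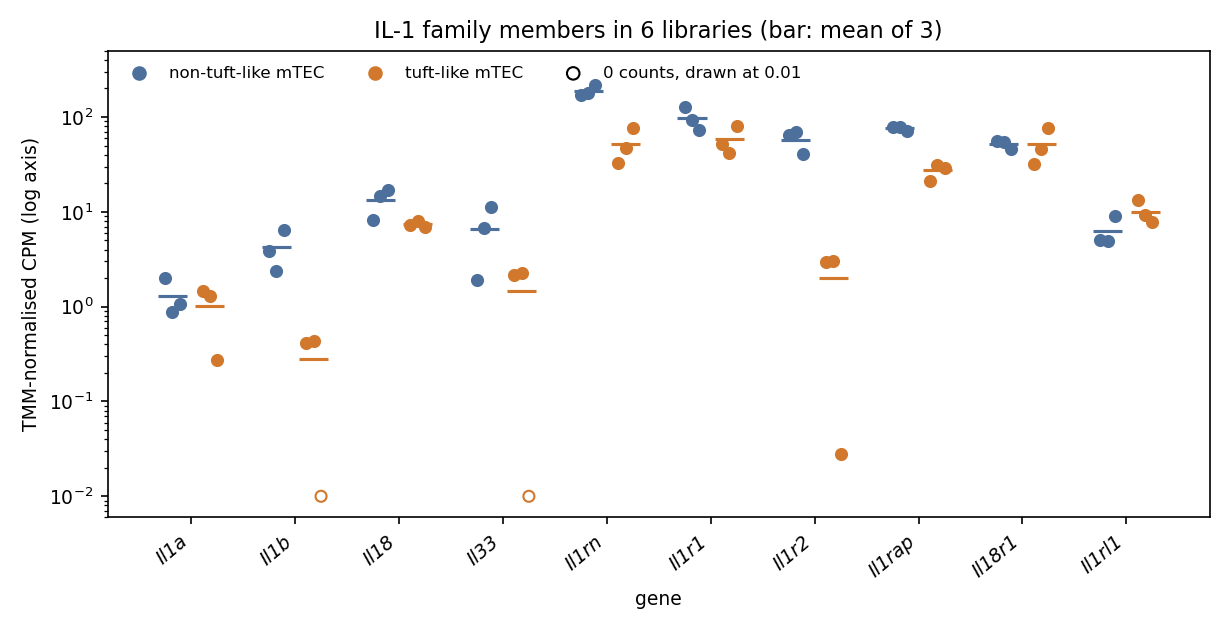
TMM-normalised CPM (log axis) of the 10 IL-1 family genes, with 1 point per library (blue, non-tuft-like; orange, tuft-like) and a bar at the mean of 3; open circles at the foot are libraries with 0 counts. The tuft-like points of Il1r2 lie at 0.0276 to 3.06 CPM, below its non-tuft-like points at 40.5 to 68.7 CPM, whereas those of Il18r1 and Il1r1 overlap.

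Promoter sequences of the 3 genes called lower are shown, 1 window for each, because these genes were lower in the tuft-like group. They are RefSeq windows of build GRCm38.p6, read on the plus strand from 250 bases before to 50 bases after the annotated start, and all 10 genes matched at least 1 of 17 such windows. The RefSeq start of Il1r2 lies inside the longer GENCODE gene, which begins upstream at 40074079. Capitals mark CACGTG, an E-box, in Il1r2 and TGANTCA, the AP-1 motif, in Il1rn. Il1rn has 3 windows, and those that begin at 24345041 and 24345121, not shown, held no match to a motif searched.
Il1r2, chr1:40085843-40086142: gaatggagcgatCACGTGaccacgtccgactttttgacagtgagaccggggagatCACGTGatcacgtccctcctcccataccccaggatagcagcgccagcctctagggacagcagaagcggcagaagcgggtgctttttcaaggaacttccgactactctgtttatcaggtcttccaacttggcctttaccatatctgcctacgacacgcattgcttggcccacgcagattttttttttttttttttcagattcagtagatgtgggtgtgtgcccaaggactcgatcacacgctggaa
Il1rn, chr2:24336610-24336909: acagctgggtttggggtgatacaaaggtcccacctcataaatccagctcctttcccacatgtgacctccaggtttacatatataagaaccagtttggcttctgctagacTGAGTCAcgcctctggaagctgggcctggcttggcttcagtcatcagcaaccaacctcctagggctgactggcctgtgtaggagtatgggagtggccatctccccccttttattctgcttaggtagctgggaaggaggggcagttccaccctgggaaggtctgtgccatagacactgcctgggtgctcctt
Il1rap, chr16:26581455-26581754: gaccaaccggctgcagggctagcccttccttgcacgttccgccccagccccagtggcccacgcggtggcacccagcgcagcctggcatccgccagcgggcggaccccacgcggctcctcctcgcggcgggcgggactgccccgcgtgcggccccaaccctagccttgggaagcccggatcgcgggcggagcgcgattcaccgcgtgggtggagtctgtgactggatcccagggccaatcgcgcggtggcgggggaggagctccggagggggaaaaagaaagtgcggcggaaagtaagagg

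Searched on both strands, CACGTG occurred 2 times in the Il1r2 window and in no window of the other 9 genes, against 7.15% of the 32851 promoter windows of the table. This motif was added after the Il1r2 sequence had been read. Among the 17 windows of the 10 genes, TGANTCA was found in 1 window of Il1rn and 1 of Il1a, and it was in 7.81% of all windows. The NF-κB motif, searched by its consensus, was found in 1 of the 17 windows, the downstream window of Il1r1, and in 1480 (4.5%) of all windows. None of the 3 motifs was in the Il1rap window, and none of the matches overlapped. A match describes letters in the window and is no evidence of binding.

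Among the ligands, Il1b encodes IL-1β, a cytokine that needs cleavage by an inflammatory caspase. Its level was 3.84, 2.40 and 6.49 CPM in non-tuft-like libraries 1, 2 and 3, and 0.410, 0.437 and 0 CPM in the tuft-like libraries. The groups did not overlap, and the tuft-like level rested on 10, 15 and 0 counts. The log2 fold change of -3.90 (SE 1.70, n = 3 and 3) had an edgeR FDR of 0.521 and was not called, whereas DESeq2 gave -3.87 with an FDR of 0.0268. With background counts subtracted all 3 tuft-like libraries were at 0, and the fitted value of -10.04 (FDR 0.0799) then depends on the prior count and is no measure of size. An antisense gene, Il1bos, shares 25 exonic bases with Il1b, and without a stated strand setting their reads cannot be told apart there.

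Il1a, which encodes IL-1α, was near the background in both groups. It had 1.99, 0.871 and 1.08 CPM in the non-tuft-like and 1.48, 1.28 and 0.276 CPM in the tuft-like libraries. The groups overlapped, and the log2 fold change was -0.37 (SE 1.53, edgeR FDR 1.0). Of its exonic bases, 222 are shared with the opposite-strand transcript Gm14023.

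Il18 encodes IL-18, a cytokine that many epithelia hold as a precursor. It reached 8.26, 14.9 and 17.0 CPM in the non-tuft-like and 7.22, 7.93 and 6.98 CPM in the tuft-like libraries. The tuft-like libraries lay close together just below the lowest non-tuft-like library, and the log2 fold change of -0.86 (SE 0.60) was not called (edgeR FDR 1.0). Il33, the gene of the nuclear alarmin IL-33, had 1.92, 6.82 and 11.2 CPM in the non-tuft-like and 2.13, 2.27 and 0 CPM in the tuft-like libraries. Non-tuft-like library 1 fell below the highest tuft-like libraries, so the groups overlapped, with a log2 fold change of -2.18 (SE 1.55, edgeR FDR 1.0). It was -3.84 with limma voom and -3.43 with background counts subtracted, and was called by neither. The 0 counts of Il33 and Il1b in tuft-like library 3 allow a level of up to 0.0828 CPM, with 3 counts taken as the limit.

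Il1rn, the gene of the receptor antagonist, had the highest CPM of the 10 genes in non-tuft-like mTEC. Its level was 172.7, 180.6 and 217.7 CPM in the non-tuft-like and 33.1, 47.6 and 76.1 CPM in the tuft-like libraries. Every tuft-like library was below every non-tuft-like library, with library 3 the highest of each group. The means were 190.3 ± 24.0 and 52.3 ± 21.9 CPM (SD, n = 3 each), a 3.64-fold lower level in tuft-like mTEC (log2 fold change -1.86, SE 0.34, edgeR FDR 0.0189). The call was lost without non-tuft-like library 2 (FDR 0.0599) or tuft-like library 2 (FDR 0.112), with log2 fold changes of -1.90 and -1.80.

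Il1r2, the gene of the decoy receptor, had the most negative log2 fold change of the 10 genes as reported, though Il1b lay below it with background counts subtracted (-10.04 against -5.22), where the tuft-like libraries of Il1b were at 0. Its counts were 2046, 3232 and 1279 in the non-tuft-like and 72, 105 and 1 in the tuft-like libraries, or 64.5, 68.7 and 40.5 CPM and 2.95, 3.06 and 0.0276 CPM. All tuft-like libraries were low, and tuft-like library 3, the library with the lowest background, held only 1 count. The means of 57.9 ± 15.2 and 2.01 ± 1.72 CPM (SD, n = 3 each) differed 28.7-fold, with a log2 fold change of -4.85 (SE 1.04, edgeR FDR 0.0419). From the olfactory receptor genes, a background of 29.0, 23.7 and 4.85 counts was expected over the exons of Il1r2 in the tuft-like libraries, and of 10.9, 17.8 and 25.8 counts in the non-tuft-like libraries. The call was lost without non-tuft-like library 1 (log2 fold change -4.77, FDR 0.0615), non-tuft-like library 2 (-4.71, FDR 0.0756), tuft-like library 1 (-5.22, FDR 0.0686) or tuft-like library 2 (-5.31, FDR 0.0723). Without tuft-like library 3 it was -4.30 (FDR 0.00163), and the tuft-like libraries lay below the non-tuft-like libraries in each of these.

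Il1r1 encodes the signalling receptor for IL-1α and IL-1β. It stood at 128.2, 94.0 and 73.3 CPM in the non-tuft-like and 52.2, 42.2 and 80.7 CPM in the tuft-like libraries. Tuft-like library 3 exceeded non-tuft-like library 3, so the groups overlapped, and the log2 fold change of -0.75 (SE 0.34) was not called (edgeR FDR 0.547). Il1rap, the gene of the coreceptor, had 77.9, 79.1 and 70.4 CPM in the non-tuft-like and 21.2, 31.5 and 29.3 CPM in the tuft-like libraries. The groups were well apart and each varied little, with means of 75.8 ± 4.73 and 27.3 ± 5.40 CPM (SD, n = 3 each). The level in tuft-like mTEC was 2.77-fold lower, with a log2 fold change of -1.47 (SE 0.29, edgeR FDR 0.0263). Il1rap stayed called without tuft-like library 3 (FDR 0.0314) but not without any other library. The FDR was 0.0823, 0.156 and 0.0539 without non-tuft-like libraries 1, 2 and 3, and 0.0628 and 0.0974 without tuft-like libraries 1 and 2. The antisense gene Gm20319 shares 552 exonic bases with Il1rap.

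Il18r1, which encodes the IL-18 receptor, had 55.6, 54.4 and 46.3 CPM in the non-tuft-like and 31.9, 45.8 and 76.4 CPM in the tuft-like libraries. The tuft-like libraries lay on both sides of the non-tuft-like ones, and the log2 fold change was -0.02 (SE 0.35, edgeR FDR 1.0). Il1rl1 encodes ST2, the IL-33 receptor, and was the 1 gene of the 10 with a positive log2 fold change (0.67, SE 0.68, edgeR FDR 1.0). Its levels were 5.01, 4.93 and 9.08 CPM in the non-tuft-like and 13.2, 9.18 and 7.78 CPM in the tuft-like libraries, with overlap.

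Levels of different genes were compared per exon length, as RPKM (the CPM divided by the exon length in kilobases), and set against a background mark, the level that 99% of 1134 olfactory receptor genes in the same library did not exceed, which was 1.24 to 2.73 RPKM. In non-tuft-like mTEC, Il1rn (34.4 ± 4.34 RPKM) and Il1r2 (30.3 ± 7.98 RPKM) were the highest and overlapped each other. All libraries of Il1r2 were above those of Il1r1 (15.5 ± 4.35 RPKM), which overlapped Il18 (13.0 ± 4.42 RPKM), and Il18 overlapped Il18r1 (10.8 ± 1.06 RPKM). Il1rap followed at 6.67 ± 0.416 RPKM, apart from its neighbours on either side. Il33 (2.31 ± 1.61 RPKM), Il1b (2.23 ± 1.09 RPKM), Il1rl1 (0.920 ± 0.344 RPKM) and Il1a (0.664 ± 0.300 RPKM) each overlapped the next (SD, n = 3).

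In tuft-like mTEC the order per exon length was headed by Il18r1 (10.7 ± 4.72 RPKM), Il1rn (9.44 ± 3.96 RPKM), Il1r1 (9.17 ± 3.14 RPKM) and Il18 (7.16 ± 0.477 RPKM), which overlapped each other in that order. A gap separated these from Il1rap (2.40 ± 0.476 RPKM), and Il1rl1 (1.46 ± 0.409 RPKM) and Il1r2 (1.06 ± 0.902 RPKM) came next. Il1a, Il33 and Il1b were at 0.513 ± 0.327, 0.509 ± 0.441 and 0.148 ± 0.128 RPKM. Per exon length, Il1r2 thus stood at rank 1 or 2 of the 10 genes in the non-tuft-like libraries and at ranks 6 to 8 in the tuft-like libraries.

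Against the background, 6 genes (Il1rn, Il1r2, Il1r1, Il18, Il18r1 and Il1rap) were above that mark in each of the 3 non-tuft-like libraries. In all 3 tuft-like libraries this held for 4 genes, Il1rn, Il1r1, Il18 and Il18r1. Il1r2 was 7.86 to 20.8 times that mark in the non-tuft-like libraries and 0.567, 0.798 and 0.0116 times in the tuft-like libraries. Il1a and Il1rl1 were below it in all 6 libraries.

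**Figure D2:**
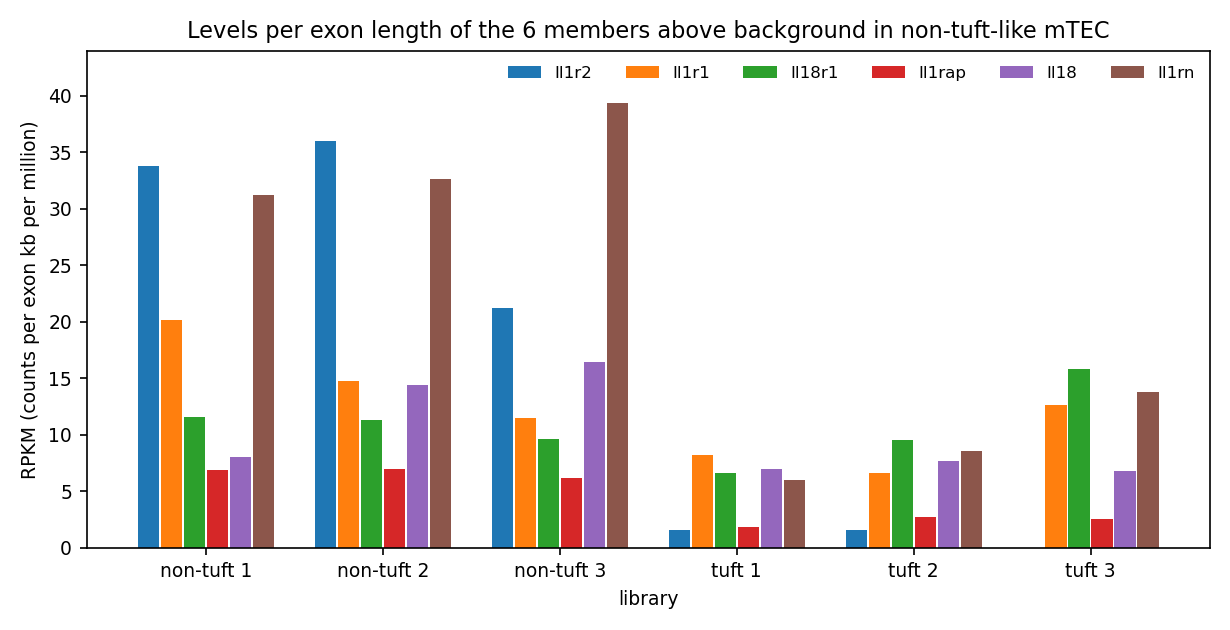
RPKM (CPM per exon kilobase) in each library for the 6 genes above the background in all 3 non-tuft-like libraries. The Il1r2 bars stand at 21.2 to 36.0 RPKM in the non-tuft-like libraries and at 0.0145 to 1.60 RPKM in the tuft-like libraries, while Il18 and Il18r1 remain between 6.63 and 16.5 RPKM throughout.

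Within a library, the ratio of the decoy to the signalling receptor does not depend on depth. Il1r2 per exon length was 1.68, 2.44 and 1.84 times Il1r1 in the non-tuft-like libraries and 0.189, 0.242 and 0.00114 times in the tuft-like libraries. Per exon length, the decoy thus exceeded the signalling receptor in all non-tuft-like libraries and was the lower of the pair in all tuft-like libraries. The order in the non-tuft-like libraries depends on the exon lengths used, 1908 bases for Il1r2 and 6363 for Il1r1. In CPM, Il1r1 was the higher there, at 73.3 to 128 CPM against 40.5 to 68.7 CPM for Il1r2. In the tuft-like libraries Il1r2 was the lower by both measures. The length of the transcripts present was not measured. Of the summed RPKM of Il1r1, Il1r2, Il1rap, Il18r1 and Il1rl1, Il1r2 made up 46.2%, 51.6% and 42.5% in the non-tuft-like and 7.68%, 7.34% and 0.0449% in the tuft-like libraries. The share of Il18r1 was 15.8%, 16.2% and 19.3% in the non-tuft-like and 32.9%, 43.6% and 49.2% in the tuft-like libraries. A share also depends on the other genes in the sum. The mean level of Il18r1 itself was 52.1 CPM in the non-tuft-like and 51.4 CPM in the tuft-like group. Il1r1 was 2.94, 2.12 and 1.86 times Il1rap in the non-tuft-like and 4.39, 2.39 and 4.92 times in the tuft-like libraries, with overlap. The antagonist Il1rn was 10.3, 19.2 and 9.97 times the summed agonists Il1a and Il1b in the non-tuft-like and 6.20, 9.78 and 98.4 times in the tuft-like libraries, so this ratio also overlapped. Its divisor was near the background, with Il1a below the mark in all 6 libraries and Il1b in all 3 tuft-like libraries. The 98.4 rested on 10 counts of Il1a and 0 of Il1b.

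**Figure D3:**
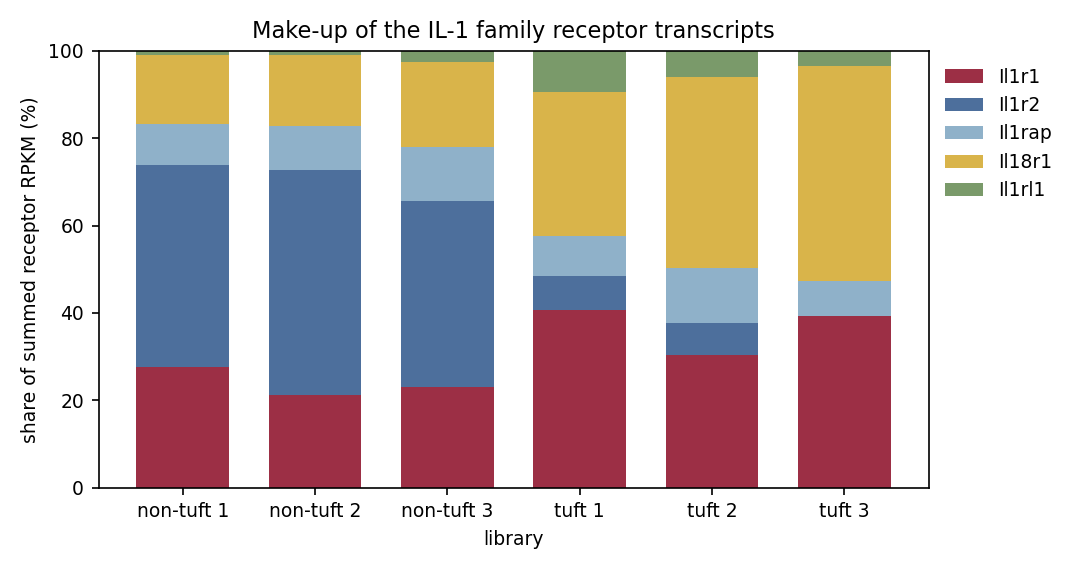
Share of each receptor gene in the summed RPKM of 5 IL-1 family receptors, in percent, for each library. Il1r2 takes 42.5% to 51.6% of the non-tuft-like bars and at most 7.68% of the tuft-like bars, where Il18r1 takes 32.9% to 49.2%. A share depends on all 5 genes, and the mean level of Il18r1 was 52.1 CPM (non-tuft-like) and 51.4 CPM (tuft-like).

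Most of the receptor genes lie together on mouse chromosome 1 of build mm10, on the plus strand. Il1r2 (40074079 to 40125231, 1908 exonic bases) is followed by Il1r1 (40225080 to 40317257), the IL-36 receptor gene Il1rl2, Il1rl1 (40429570 to 40465415), Il18r1 (40465552 to 40500854) and the IL-18 coreceptor gene Il18rap. Of these 6 genes, Il1r2 was called and the others were not. Il1rl2 had 93.6, 106.6 and 93.8 CPM in the non-tuft-like and 38.6, 52.7 and 117.2 CPM in the tuft-like libraries, which overlapped (log2 fold change -0.50, SE 0.39, edgeR FDR 1.0). Il18rap did not exceed the background mark in any library (log2 fold change 0.42, SE 1.93). A difference in fold between Il1r2 and its neighbours was not tested.

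The antagonist Il1rn lies on chromosome 2 (24336853 to 24351494) at the end of a cluster with the IL-36 genes, in which the named genes all had negative log2 fold changes. The IL-36 cytokines signal through the receptor encoded by Il1rl2 with Il1rap as coreceptor, and Il36rn encodes their antagonist. Il36g had 50.4, 62.1 and 57.3 CPM in the non-tuft-like and 3.69, 5.33 and 14.5 CPM in the tuft-like libraries, without overlap (log2 fold change -2.85, SE 0.52, edgeR FDR 0.0185). Il36rn had 187.5, 211.9 and 256.4 CPM in the non-tuft-like and 8.29, 11.4 and 46.2 CPM in the tuft-like libraries (-3.31, SE 0.60, edgeR FDR 0.0178). Both were apart between the groups, and tuft-like library 3 was the highest of its group in both. The call of Il36g was lost without non-tuft-like library 2 (FDR 0.0565) or tuft-like library 2 (FDR 0.0733), and that of Il36rn without tuft-like library 2 (FDR 0.0578).

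Il36a, an agonist, ran from 67.8 to 153.9 CPM in the non-tuft-like and from 3.04 to 29.6 CPM in the tuft-like libraries and was not called (log2 fold change -2.81, edgeR FDR 0.0734). Il36b (-3.01, edgeR FDR 0.633) did not overlap either, and Il1f10 (-2.89, edgeR FDR 0.838) had 1, 0 and 309 counts in the tuft-like libraries and overlapped. Without tuft-like library 3, Il1f10 was called (FDR 0.00426), at a fitted value of -10.01 that rested on 1 count in the tuft-like group. Il36a was called without non-tuft-like library 1 (-3.14, FDR 0.0413) or tuft-like library 1 (-2.31, FDR 0.0219), and by DESeq2 (FDR 0.000765). On the same chromosome but far from this cluster, Il1a (129299610 to 129309972) and Il1b (129364570 to 129371139) lie next to each other on the minus strand. The remaining genes are single, with Il1rap at 26581704 to 26730117 on chromosome 16, Il18 at 50554827 to 50581840 on chromosome 9 and Il33 at 29925114 to 29960718 on chromosome 19.

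**Figure D4:**
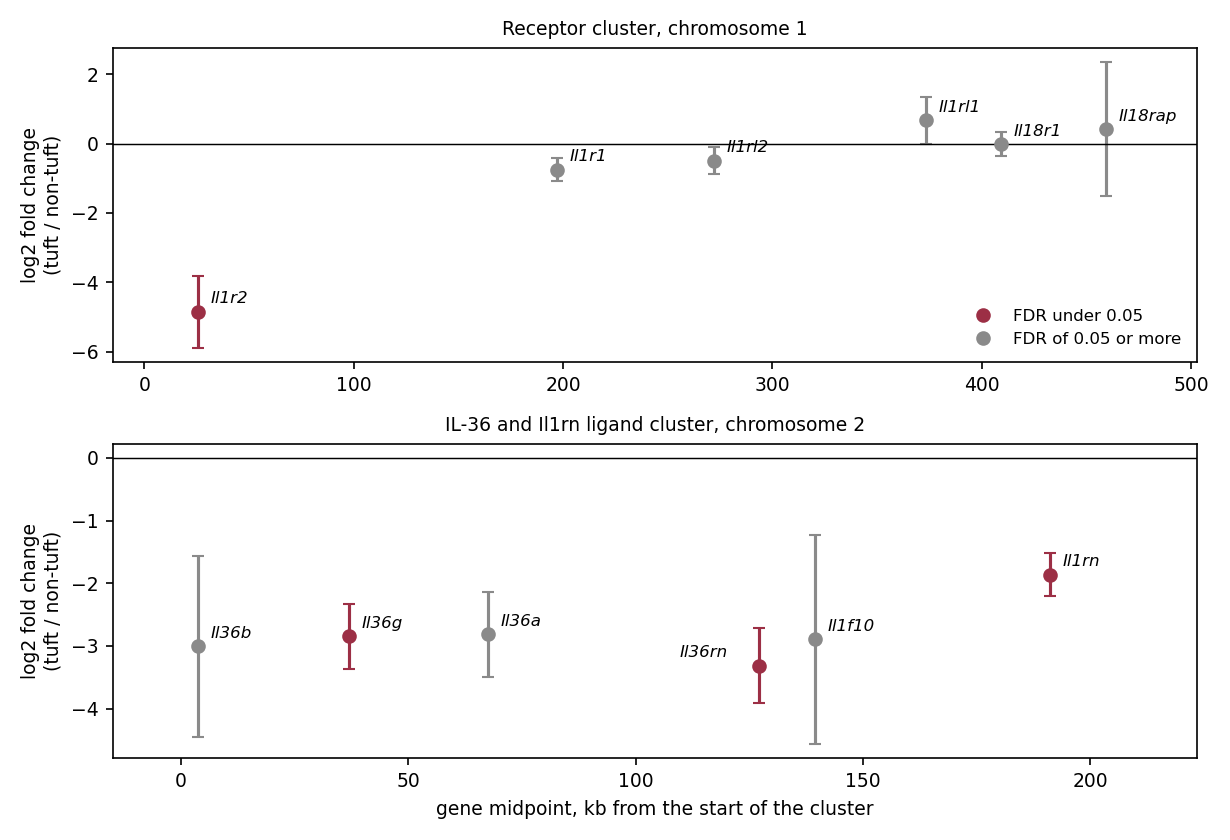
Log2 fold change (tuft-like over non-tuft-like, bars ± SE) of the named genes of the receptor cluster (above) and of the IL-36 and Il1rn cluster (below), against the gene midpoint in kilobases from the start of each cluster. In the receptor cluster Il1r2 lies at -4.85 and the others between -0.75 and 0.67, while all 6 genes of the ligand cluster lie between -3.31 and -1.86.

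The other genes of the pathway were taken from lists of 58 genes, of which 56 were tested. The lists were chosen with earlier results of these data known, so their counts are a description. Of the 56 genes, those called and their shares are given beside all genes tested. By edgeR, 5 of the 56 were called lower (8.93%) and 0 higher, against 0.951% and 1.16% of all genes tested. An unadjusted p under 0.05 was found for 16 genes, among them Capn1, Irak1 and Tnfaip3 with higher levels in tuft-like mTEC. The share of all genes with such a p was not computed. DESeq2 called 2 of the pathway genes as higher and 11 as lower, and 2043 genes of the whole table in either direction. The share of all genes that DESeq2 called in each direction was not computed. The median log2 fold change of the 56 genes was -0.49. The 5 called genes were Il36g and Il36rn, 2 of 11 other family genes, and Icam1, Vcam1 and Nos2, 3 of 16 tested NF-κB targets. Il18bp, which encodes the soluble IL-18 binding protein, was at 23.2 ± 1.60 CPM in the non-tuft-like group and 35.9 ± 1.27 CPM in the tuft-like group, without overlap (edgeR FDR 0.688).

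Of 14 tested genes for processing of IL-1 cytokines, 0 were called by edgeR and 3 had an unadjusted p under 0.05. These 3 were Casp1, Casp4 and Capn1. Capn1 was higher in tuft-like mTEC without overlap, at means of 16.2 CPM in the non-tuft-like and 47.4 CPM in the tuft-like group (log2 fold change 1.55, edgeR FDR 0.125). Casp1, the gene of the caspase that cleaves IL-1β and IL-18, was at 115.1 ± 22.8 CPM in the non-tuft-like group and 51.0 ± 16.6 CPM in the tuft-like group without overlap (log2 fold change -1.17, edgeR FDR 0.112). Casp4, which encodes the caspase that senses lipopolysaccharide in the cytosol, was at 91.3 ± 7.37 and 31.6 ± 13.8 CPM (-1.53, edgeR FDR 0.0538). Gsdmd, the gene of the pore-forming gasdermin D, overlapped at 88.8 ± 17.8 and 52.6 ± 37.0 CPM. That overlap came from tuft-like library 3, at 94.7 CPM against 25.5 and 37.4 CPM in tuft-like libraries 1 and 2. Without tuft-like library 3, Gsdmd (-1.53, FDR 0.0474), Casp1 (-1.51, FDR 0.0265) and Casp4 (-1.97, FDR 0.00878) were called lower. DESeq2 gave an FDR of 0.00103 for Casp4 and 0.0105 for Casp1.

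Of 15 genes of the signalling chain, 0 were called by edgeR and 1 had an unadjusted p under 0.05. This was Irak1, with a positive log2 fold change of 0.90 and overlap between the groups (edgeR FDR 0.359). Ikbkb, which encodes a kinase that releases NF-κB, was at 229.1 ± 52.0 CPM in the non-tuft-like group and 167.6 ± 27.7 CPM in the tuft-like group. Tollip, the gene of an adaptor that restrains IRAK, was at 131.9 ± 26.5 and 132.9 ± 13.9 CPM, and Ikbkg, the gene of the regulatory subunit of the kinase, was at 90.2 ± 26.0 and 101.6 ± 33.4 CPM. The last of these overlapped, as did Tollip.

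Among the NF-κB targets, the adhesion molecule gene Icam1 had 433.6, 382.2 and 329.3 CPM in the non-tuft-like and 59.1, 50.7 and 63.3 CPM in the tuft-like libraries, without overlap (log2 fold change -2.72, SE 0.28, edgeR FDR 0.000886). Vcam1, another adhesion molecule gene, had 203.9, 307.5 and 253.4 CPM in the non-tuft-like and 42.1, 35.0 and 23.7 CPM in the tuft-like libraries (-2.92, SE 0.33, edgeR FDR 0.00132). Both stayed called without any 1 library. Nos2, the gene of the inducible nitric oxide synthase, was at 72.1 ± 11.7 CPM in the non-tuft-like group and 22.6 ± 7.64 CPM in the tuft-like group (-1.67, edgeR FDR 0.0366). Its FDR was 0.129, 0.132 and 0.0528 without non-tuft-like libraries 1, 2 and 3 and 0.162 without tuft-like library 2. Ptgs2 (-1.44, edgeR FDR 0.158), Cxcl5 (-1.77, edgeR FDR 0.280) and Lcn2 (-2.78, edgeR FDR 0.432) were lower without overlap and not called. Of the 16 targets tested, 13 had a negative log2 fold change, against 49.0% of all genes tested. In 8 (50%) every tuft-like library lay below every non-tuft-like library, against 8.87% of all genes tested. In 1 every tuft-like library lay above.

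The feedback genes of NF-κB did not share a direction. Nfkbia, which encodes the inhibitor IκBα, was at 799.2 ± 76.9 CPM in the non-tuft-like group and 376.3 ± 145.4 CPM in the tuft-like group (log2 fold change -1.09, edgeR FDR 0.217), and Nfkbiz was at 184.0 ± 11.2 and 119.5 ± 24.8 CPM (edgeR FDR 0.510). Tnfaip3, which encodes the deubiquitinase A20, was at 93.1 ± 18.8 and 241.1 ± 70.7 CPM (1.37, edgeR FDR 0.0605). None of these 3 overlapped between the groups, and none was called as reported. These calls depended on the setting, since Tnfaip3 was called higher under 8 of 14 alternatives (DESeq2 FDR 0.000562) and Nfkbia lower under 6 of 14 (DESeq2 FDR 0.0146). Among them were the fits of Tnfaip3 without tuft-like library 1 (1.60, FDR 0.0174) and of Nfkbia without tuft-like library 3 (-1.48, FDR 0.0166).

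Of 8 genes of decoy receptors from other families, 1 was called higher and 1 lower. These are 12.5% each, against 1.16% and 0.951% of all genes tested. The other 6 were not called, and 4 of the 8 were below the background mark in all 6 libraries. Ackr4, which encodes a scavenger of homeostatic chemokines, had 4.51, 21.6 and 11.1 CPM in the non-tuft-like and 85.1, 114.2 and 120.8 CPM in the tuft-like libraries, without overlap (log2 fold change 3.10, SE 0.51, edgeR FDR 0.0109). Tnfrsf11b, the gene of osteoprotegerin, a decoy for RANKL, had 50.4, 118.5 and 102.1 CPM in the non-tuft-like and 20.96, 16.3 and 15.3 CPM in the tuft-like libraries (-2.36, SE 0.37, edgeR FDR 0.00814). Both remained called without any 1 library.

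The 5 genes most like Il1r2 over the 6 libraries, by Pearson's r of log2 CPM among the 11583 genes averaging 10 CPM or more, were Ggt5 (r = 0.999), Ebpl (0.998), Klk9 (0.997), Cars (0.997) and Wnt10a (0.996). These points share the 2 groups and the low value of tuft-like library 3, so r is a description. Among the IL-1 family genes at that level, r with Il1r2 was 0.806 for Il1rap, 0.682 for Il18, 0.652 for Il1rn, 0.408 for Il1r1 and -0.301 for Il18r1.

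Markers of other cell types were read beside these results. Il1r2 and Il1b are also genes of neutrophils and macrophages. Of 10 neutrophil markers 0 were called by edgeR (2 had an unadjusted p under 0.05), and their summed level was 109.6 to 159.7 CPM in the non-tuft-like group against 57.6 to 219.3 CPM in the tuft-like group. Of these, Ly6g was at 0 counts in non-tuft-like library 1 and tuft-like library 3, and S100a8 and S100a9 were above the background mark in all 6 libraries. Both had lower levels in tuft-like mTEC without overlap, at means of 25.5 and 5.76 CPM for S100a8 (edgeR FDR 0.299) and 36.3 and 9.08 CPM for S100a9 (edgeR FDR 0.137), in the same direction as Il1r2 and Il1b. Ltf, which gland epithelia also express, had 39.1 and 126.2 CPM and carried most of the tuft-like sum. The median log2 fold change of the 10 markers was -1.33, with 7 negative and 3 positive values. Csf3r (-0.11), Cxcr2 (2.13) and Mmp8 (0.21) were below the background mark in all 6 libraries. The part of the 10 markers in the results for Il1r2 and Il1b was not tested. Of 10 macrophage and dendritic cell markers, Cd68 was called lower, and the sum was 271 to 407 CPM and 153 to 262 CPM. Fcgr1 was at 0 in non-tuft-like libraries 1 and 2 and tuft-like library 3, and Itgax and Itgam were at 0 in tuft-like library 3.

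Of 10 T cell and Treg markers 0 were called by edgeR (0 with an unadjusted p under 0.05), with sums of 31.7 to 39.2 CPM and 15.8 to 59.4 CPM. Of the 8 mast cell and basophil markers, 6 were tested and 0 called (2 with an unadjusted p under 0.05), with sums of 250.2 to 428.8 CPM and 66.8 to 192.6 CPM that rested on Hdc. Of 8 ILC2 markers, Il17rb, which tuft cells also express, was called higher and Gata3 lower, with sums of 207 to 209.8 CPM and 341 to 559 CPM. The higher sum rested on Il17rb (20.1 and 347.2 CPM), while the other 7 markers had negative log2 fold changes, 4 of them without overlap, and the median of the 8 was -1.57. Of 7 fibroblast markers 0 were called by edgeR (0 with an unadjusted p under 0.05), with sums of 48.4 to 76.5 CPM and 38.8 to 196.0 CPM, and of 6 endothelial markers Tek was called higher, with sums of 159.1 to 238.3 CPM and 254.3 to 474.3 CPM.

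The epithelial lists differed more. Of 10 keratinocyte markers, 6 were called lower in tuft-like mTEC (Dmkn, Sbsn, Ivl, Flg, Dsg1a and Spink5), with sums of 4023 to 6379 CPM in the non-tuft-like group against 194.5 to 1529 CPM in the tuft-like group, and none was at 0 in a library. Of 10 markers of mature mTEC, 6 were called lower (Aire, Fezf2, Cd40, H2-Aa, H2-Ab1 and Cd74), with sums of 14245 to 17925 CPM and 2261 to 5016 CPM. Of 10 thymic epithelial markers, Krt14 and Foxn1 were called lower, and 9 were above the background mark in all 6 libraries. The keratinocyte and mature mTEC sums were lower in the tuft-like group, as were Il1r2, Il1rn, Il1rap and the IL-36 genes. Within that group the order of the 3 libraries differed between genes. Spink5 rose from library 1 to 3 (40.9, 85.4 and 196.7 CPM), as did Il1rn (33.1, 47.6 and 76.1 CPM). Il36g (3.69, 5.33 and 14.5 CPM), Il36rn (8.29, 11.4 and 46.2 CPM) and Il36a (3.04, 20.6 and 29.6 CPM) rose too. Aire (19.2, 23.4 and 18.7 CPM) and Il1rap (21.2, 31.5 and 29.3 CPM) did not. Il36b (2.63, 1.28 and 0 CPM) fell, and Il1r2 had 2.95, 3.06 and 0.0276 CPM. The part of the keratinocyte and mature mTEC markers in the results for the IL-1 family genes was not tested.

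**Figure D5:**
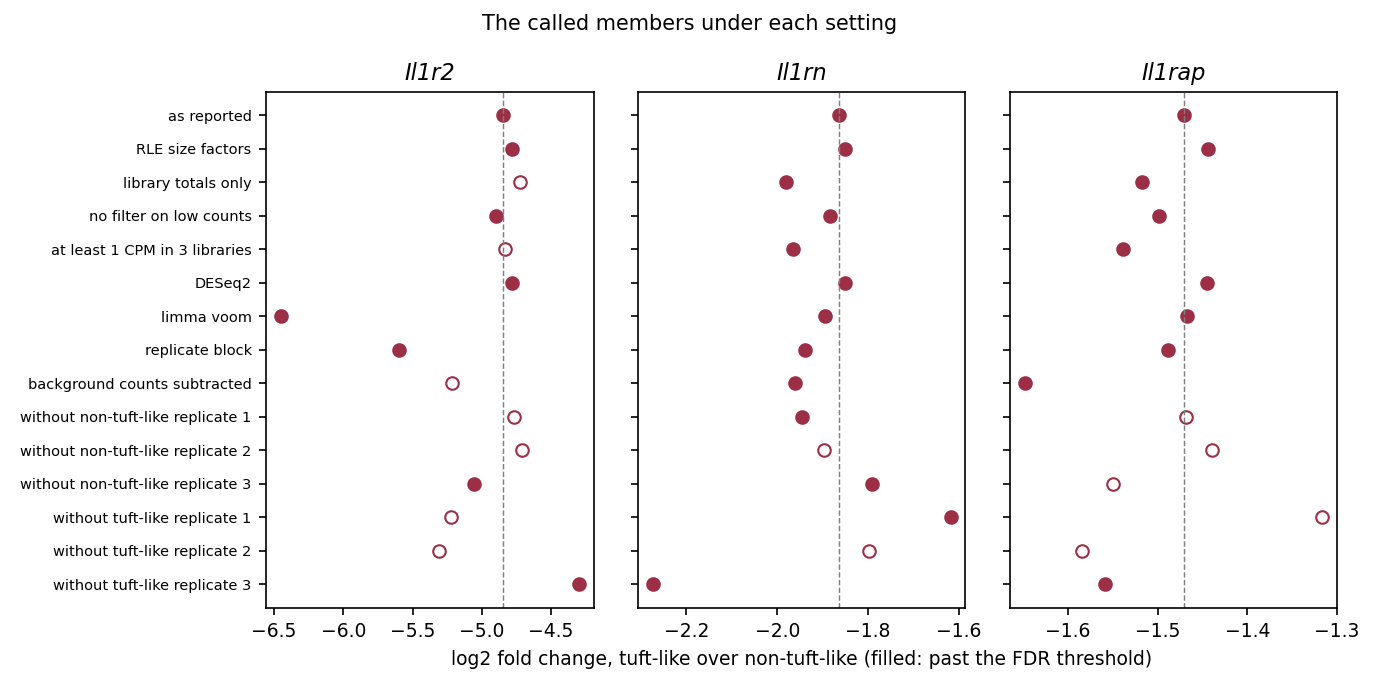
Log2 fold change of Il1r2, Il1rn and Il1rap as reported (dashed line) and under 14 other settings, filled where the FDR is under 0.05. Il1r2 stays between -6.45 and -4.30 and is filled under 7 of the 14 settings, Il1rn under 12 and Il1rap under 9.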

How the data were processed

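The authors made libraries from RNA of sorted mTEC with a kit for ultra-low input. Per the labels, reads were trimmed with Trimmomatic 0.36, aligned to mm10 with STAR 2.7.3a and assigned to genes with HTSeq, and the authors deposited the counts per gene without normalisation. The strand setting and annotation release are not given in the sources used here. The rows of unassigned reads (no feature, 19.7% to 61.6%) and 92 ERCC rows, at 0 throughout, were left out.

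Gene identifiers were matched to GENCODE M21, which named 99.7% of the 52636 gene rows. Groups followed the sample labels. Counts were filtered with filterByExpr (minimum count 10, minimum total 15), TMM-normalised and tested with edgeR 4.0.16 in R 4.3.3 (quasi-likelihood F-test, Benjamini-Hochberg adjustment over all genes tested, no covariates). SEs were taken from F, as the absolute log2 fold change over its square root. The script was tested on simulated data. Exon length was the union of annotated exons. Counts between 20097617 and 48369825 per library put the limit of a count of 0, taken as 3 counts, at 0.0638 to 0.123 CPM, a limit of counting error only, as the reads carry no molecular identifiers and are not independent molecules.

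The members and lists were chosen with earlier results of these data known. Named were all members, the called genes and up to 3 others with the highest mean CPM in each pathway list, the family genes of both clusters, and the 5 genes most like Il1r2. Capn1, Irak1, Ptgs2, Cxcl5 and Lcn2 were named for an unadjusted p under 0.05. Alternatives were RLE factors, library totals, other filters, DESeq2 1.42.0, limma 3.58.1 (voom), a replicate block, FDR 0.01, unshared exon bases and each library left out in turn. Subtraction of background counts, estimated per exon length from 1134 olfactory receptor genes, was chosen after seeing the data.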

Additional observations from a re-analysis of the deposited data

How the results depend on the processing

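Each of the 10 genes had 13 or 14 alternative fits. Il1r2 kept its direction in all 14 and was called in 7. It missed the threshold with library totals alone (-4.72, FDR 0.0714), with at least 1 CPM in 3 libraries (-4.83, FDR 0.0595), with background counts subtracted, an alternative chosen after seeing the data (-5.22, FDR 0.0596), and in 4 of the 6 fits without 1 library. All 6 of these fits, called or not, ran from -5.31 to -4.30. Of the 10 genes, 0 passed an FDR of 0.01 (319 in the whole table), and 0 to 3 were called without 1 library, the 0 arising without non-tuft-like replicate 2 or tuft-like replicate 2 (379 and 376 genes in the whole table). Whole-table calls rose from 687 to 1045 with library totals, 1127 without a filter, 2043 with DESeq2 and 1055 with background subtracted.

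Among pathway genes, 1 was called higher with RLE factors, library totals, no filter, at least 1 CPM in 3 libraries, limma voom or background subtracted, 2 with DESeq2, and 0 to 1 without 1 library. The number called lower was 10 with library totals, 8 with no filter, 8 with at least 1 CPM in 3 libraries, 11 with DESeq2, 9 with limma voom, 2 at an FDR of 0.01, 9 with background subtracted and 2 to 12 without 1 library. The cause was not tested.

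Genes near no change turned sign. Il1a (-0.74 to 0.059 without 1 library) reached 0.059 without non-tuft-like replicate 1 and 0.039 without tuft-like replicate 3. Il18r1 (-0.46 to 0.23) reached 0.0053 and 0.015 without non-tuft-like replicates 1 and 2, and 0.23 and 0.058 without tuft-like replicates 1 and 2. Tollip (-0.12 to 0.18) was -0.018 with no filter, -0.043 with at least 1 CPM in 3 libraries, -0.0016 with limma voom, -0.064 and -0.12 without non-tuft-like replicates 1 and 3, and -0.050 and -0.049 without tuft-like replicates 1 and 3. Ikbkg (-0.057 to 0.41) was -0.029 without non-tuft-like replicate 1 and -0.057 without tuft-like replicate 2. Il18rap (-0.17 to 4.81) was -0.66 with background subtracted, and -0.078 and -0.17 without non-tuft-like replicates 1 and 2.

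With the replicate number as a block, 3 members and 7 pathway genes were called and Il1r2 was at -5.60 (FDR 0.00374). The whole-table count of that fit is not given here, so the 3 and 7 have no share beside them. Over the 15 alternatives the whole table held 319 to 2043 calls. Deviations of same-numbered libraries correlated at -0.156, -0.061 and -0.326, and the number was not treated as a pairing. With 3 libraries per group and a common biological coefficient of variation of 1.10, genes of few counts such as Il1b, Il33 and Il1a carried SEs of 1.53 to 1.70.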
